A study of Mus musculus with 43 samples.

Results

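Initiator and elongator methionine tRNAs share the anticodon CAT (written as DNA) and serve different steps of translation, and their fragments were compared here across the mouse epididymis, epididymal luminal fluid and cauda sperm. The members were the deposited fragment rows of `tRNA-iMet-CAT`, the initiator, and of `tRNA-Met-CAT`, the elongator, taken by name as rows that end in a 5′, 3′ or other fragment type. Each of the 3 count tables held 27 such rows, 9 of the initiator (3 isodecoders, which are tRNAs with the same anticodon and a different body, in 3 fragment types) and 18 of the elongator (6 isodecoders). They stood among 651, 645 and 654 rows of tRNA fragments (tRFs), and among 4890, 3178 and 4323 RNAs in all, in the tissue, fluid and sperm tables. The filter on low counts left 25 of the 27 rows in tissue and in fluid (all 9 initiator rows and 16 elongator rows) and 22 in sperm (9 and 13).

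The initiator tRNA brings methionine to the start codon as part of the complex that finds the beginning of the reading frame, whereas the elongator tRNA delivers methionine to codons inside the message. Cleavage of mature tRNAs, for example by Angiogenin of the RNase A family, gives tRFs, and sperm are known to gain tRFs while they pass through the epididymis, a duct with a proximal caput, a middle corpus and a distal cauda. A tRF_5′ reaches the 5′ end of the mature tRNA, a tRF_3′ reaches its 3′ end, and a tRF_other reaches neither.

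All mice were FVB, aged 8 to 12 weeks, and either wild type (WT) or homozygous for a CRISPR/Cas9 deletion of the Rnase9, Rnase10, Rnase11 and Rnase12 genes (KO), so the contrast concerns the loss of 4 genes together in 1 mouse line. The tissue groups were caput (3 WT, 3 KO), corpus (3 WT, 2 KO) and cauda epididymis (3 WT, 3 KO), and there were from fluid 3 WT and 3 KO of each segment, and from cauda sperm 4 WT and 4 KO. By the study's methods, fluid was cleared of sperm, debris and vesicles by centrifugation before RNA was extracted, so that fluid levels are of RNA outside cells and vesicles as far as this clearing goes. Each fluid or sperm library was pooled from 3 mice, and nothing states whether tissue libraries were pooled, so p-values measure the spread between libraries. All RNA was treated with polynucleotide kinase (PNK), which lets fragments with the phosphate ends left by RNase A enzymes enter a library. Tissue libraries were made by ARM-seq and the others by OTTR-seq, and levels across the 3 tables are set side by side as descriptions only.

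Several libraries stood apart or had conflicting labels. The sample titles placed WT caput tissue replicate 3 and all 6 caput fluid libraries in the caput, while another label of theirs says cauda, and the titles were followed. The deleted genes were not among the counted RNAs, so the genotype labels could not be checked. Tissue libraries numbered 3 held more elongator tRF_3′ than the others of their group, and WT corpus fluid replicate 1 held the most tRF_other. By level, WT cauda sperm replicate 4 lay near the KO libraries for most members, and it had the smallest share of tRFs of the sperm libraries. Tissue libraries held 30142156 to 249732714 counts, fluid libraries 1948718 to 12320922 and sperm libraries 1134840 to 62128314, and tRFs made up 0.690 to 5.20%, 73.6 to 87.9% and 1.51 to 8.39% of them. Reads that matched several isodecoders equally were counted on each, so a class total counts some reads more than once. For part of the results, values are also given for the most counted isodecoder of each fragment type. Some differences not shown that way also changed with this choice.

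The 2 classes were found in different forms, and the form of each depended on where it was sampled. In epididymal luminal fluid the initiator was almost wholly tRF_5′, with 94.2% ± 2.42 of its fragment counts in WT caput, 88.6% ± 2.11 in WT corpus and 93.5% ± 3.95 in WT cauda (SD, n = 3 each). Single WT libraries ranged from 91.5 to 96.1% in caput, from 86.8 to 90.9% in corpus and from 89.3 to 97.1% in cauda. The initiator ranked between 1 and 3 of 50 anticodons by this share in each of the 6 fluid groups, while the median anticodon had 9.98 to 15.5% of its counts in tRF_5′. The elongator had 8.48% ± 2.71, 2.76% ± 1.72 and 1.09% ± 0.902 in tRF_5′ in the same 3 WT groups, and its main form was tRF_3′ in caput fluid (84.1% ± 3.79). In WT corpus fluid the elongator was split between tRF_3′ (48.0% ± 17.1) and tRF_other (49.3% ± 18.3), with tRF_other at 67.8, 31.2 and 48.8% in single libraries. The elongator was thus mostly 3′ fragments or inner fragments wherever the initiator was mostly 5′ fragments. Its tRF_3′ share in WT caput fluid ranked 21 of 50 anticodons, where the median anticodon had 70.7%.

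**Figure D1:**
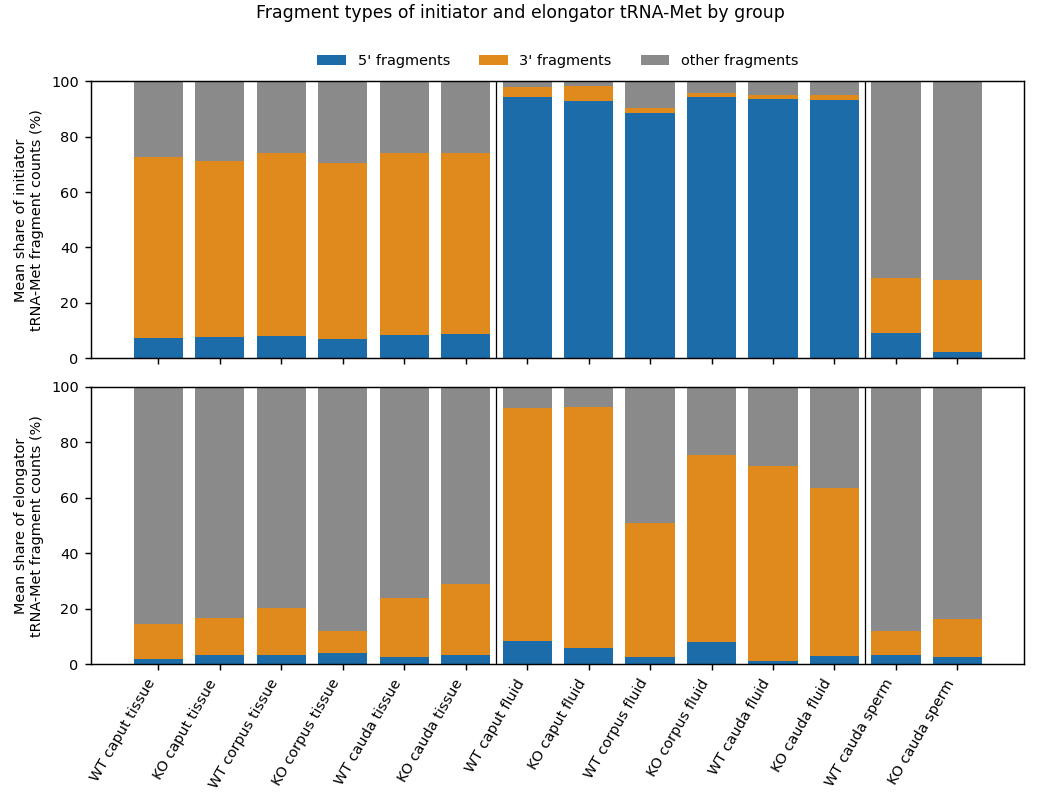
Mean share (%) of initiator (top) and elongator (bottom) tRNA-Met fragment counts that were 5′, 3′ or other fragments, stacked to 100% for each of the 14 groups, with vertical lines between tissue, fluid and sperm. In fluid the initiator bars are nearly all 5′ fragments, from 88.6 to 94.4%, and the elongator bars are mostly 3′ or other fragments; bars show group means without error.

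In tissue and sperm neither class was mostly tRF_5′. The initiator in tissue was mainly tRF_3′, with group means from 63.5 to 66.0%, and 7.11 to 8.64% was tRF_5′. The median anticodon had 52.7 to 64.8% of its counts in tRF_3′ in these groups. The elongator in tissue was mainly tRF_other by summed counts, from 70.9% ± 11.5 in KO cauda to 88.1% ± 1.02 in KO corpus (n = 2). With the most counted isodecoder of each fragment type these means were 57.8% ± 14.1 and 77.1% ± 1.93. In 1 KO cauda library tRF_3′ then led, at 55.2% against 42.3% for tRF_other. In sperm tRF_other led in both classes, at 71.1% ± 6.11 of initiator and 87.98% ± 4.57 of elongator counts in WT and at 71.9% ± 6.15 and 83.7% ± 6.16 in KO (n = 4 each). Of 66 exact permutation tests (2-sided) of a fragment type share between groups, none had an adjusted p under 0.508 by the Benjamini-Hochberg method, and with 3 libraries against 3 the smallest p possible was 0.1, so the test could not pass at 0.05. Fluid and tissue differed in library method, and the part of the method in the difference in form was not tested.

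More fragments came from the initiator than from the elongator in every library of the 3 tables. On the log2 scale, the ratio of initiator to elongator fragment counts was 1.03 ± 0.36 in WT caput, 0.87 ± 0.15 in WT corpus and 0.53 ± 0.30 in WT cauda tissue. It was 2.01 ± 0.09, 1.82 ± 0.23 and 2.93 ± 0.88 in WT caput, corpus and cauda fluid and 2.14 ± 0.74 in WT sperm. With the most counted isodecoder of each fragment type the WT means were 1.73, 1.55 and 1.27 in caput, corpus and cauda tissue, 1.94, 1.33 and 2.39 in fluid and 3.07 in sperm. Between WT corpus and caput fluid the summed ratios differed by -0.18 with overlap (exact permutation p = 0.3, unadjusted). The most counted isodecoder gave -0.61 there without overlap (exact permutation p = 0.1, unadjusted). By fragment type the order was not the same everywhere. For tRF_5′ the initiator led in each library, and in WT fluid the log2 ratio was 5.53 ± 0.39 in caput, 7.11 ± 1.37 in corpus and 9.67 ± 0.87 in cauda. For tRF_3′ the elongator led in each of the 18 fluid libraries, with group means from -2.93 to -2.22, whereas the initiator led in each tissue and sperm library, with group means from 2.35 to 3.82. These directions were the same with the most counted isodecoder of each class. For tRF_other in tissue the elongator led by summed counts (group means from -1.02 to -0.45), but with the most counted isodecoder the group means were 0.29 to 0.87, so that order depended on how shared reads were counted. Mature tRNAs are of nearly equal length, and no correction for length was made.

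**Figure D2:**
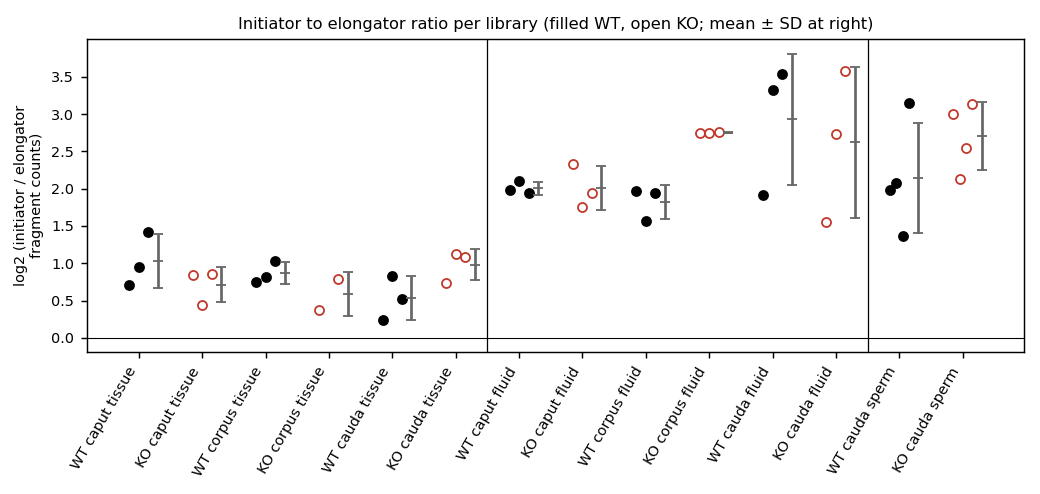
Log2 ratio of initiator to elongator fragment counts (all 3 types, vertical axis) in each library of the 14 groups, with the mean ± SD beside the points. All points lie above 0, and the 3 KO corpus fluid libraries (2.74 to 2.76) lie above the 3 WT corpus fluid libraries (1.56 to 1.96).

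Among all tRFs the initiator was a class of middling abundance and the elongator a smaller one. Initiator fragments held 1.70 to 2.05% of tRF counts in the tissue groups, 1.02 to 1.64% in the fluid groups and 2.97% ± 1.10 in WT sperm. Elongator fragments held 0.988 to 1.26%, 0.175 to 0.366% and 0.667% ± 0.232. Ordered by total level among 50 or 51 anticodons, the initiator stood at 16 to 18 in tissue, 14 to 24 in fluid and 12 or 13 in sperm, and the elongator at 21 to 24, 38 to 43 and 31 to 42. Levels in the rest of the text are in CPM, the library-scaled unit that edgeR gives after TMM scaling, and each initiator or elongator level is the sum over its isodecoders.

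Along the WT duct, the elongator tRF_5′ in fluid fell from caput to cauda and the initiator tRF_5′ was not called in either comparison. Elongator tRF_5′ stood at 272, 262 and 216 CPM in WT caput fluid, 34.5, 49.7 and 71.0 CPM in WT corpus fluid and 6.54, 31.7 and 17.2 CPM in WT cauda fluid. The 3 segments did not overlap, and caput was the highest. By edgeR's quasi-likelihood test the log2 fold change was -2.27 ± 0.47 (SE) in corpus against caput (adjusted p = 0.00399) and -3.76 ± 0.50 in cauda against caput (adjusted p = 6.73e-05). An RNA is named as called where the adjusted p was under 0.05 and the log2 fold change was beyond 1 in either direction. Initiator tRF_5′ stood at 13594, 8930.1 and 12442 CPM in WT caput fluid, 14331, 4022 and 5634 CPM in corpus and 5435, 14104 and 25554 CPM in cauda. These groups overlapped, and the log2 fold changes were -0.54 ± 0.55 in corpus (adjusted p = 0.595) and 0.37 ± 0.55 in cauda (adjusted p = 0.641, edgeR). The difference between the classes is the change in their tRF_5′ ratio, which rose by 4.14 from caput to cauda without overlap, at the smallest p that 3 libraries against 3 allow (exact permutation p = 0.1, adjusted p = 0.66 over 44 ratio tests).

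The tRF_other of both classes rose in WT corpus fluid, by amounts that WT corpus fluid replicate 1 set in part. Elongator tRF_other stood at 342, 169.9 and 184 CPM in WT caput and at 2739.6, 483 and 822 CPM in WT corpus fluid, a log2 fold change of 2.54 ± 0.56 (edgeR adjusted p = 0.00633). Initiator tRF_other stood at 307, 204 and 247 CPM in caput and 1212, 446 and 758 CPM in corpus, a log2 fold change of 1.67 ± 0.40 (edgeR adjusted p = 0.0078). In each class the corpus libraries lay above the caput libraries. Without WT corpus fluid replicate 1 the log2 fold changes were 1.55 (adjusted p = 0.0556) and 1.29 (adjusted p = 0.0533, edgeR), and neither was called. Elongator tRF_3′, at 2972, 1840.3 and 3018 CPM in caput and 1267, 1015 and 793 CPM in corpus, fell by 1.35 on the log2 scale (SE 0.38, edgeR adjusted p = 0.0201). That call was lost without any one of WT caput replicates 1 and 3 and WT corpus replicates 1, 2 and 3 (edgeR adjusted p from 0.0533 to 0.12), and with the most counted isodecoder the log2 fold change was -0.76 (adjusted p = 0.277). In cauda against caput, initiator tRF_other (617, 531 and 391 CPM in cauda) had a log2 fold change of 1.02 ± 0.39 and missed the threshold (edgeR adjusted p = 0.0625). Leaving out 1 library, which also widened the set of RNAs tested and moved the scaling, gave 1.33 to 1.63 and a call in 5 of 6 fits. With the filter and scaling of all libraries kept, the values were 0.87 to 1.19 and none was called (edgeR).

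**Figure D3:**
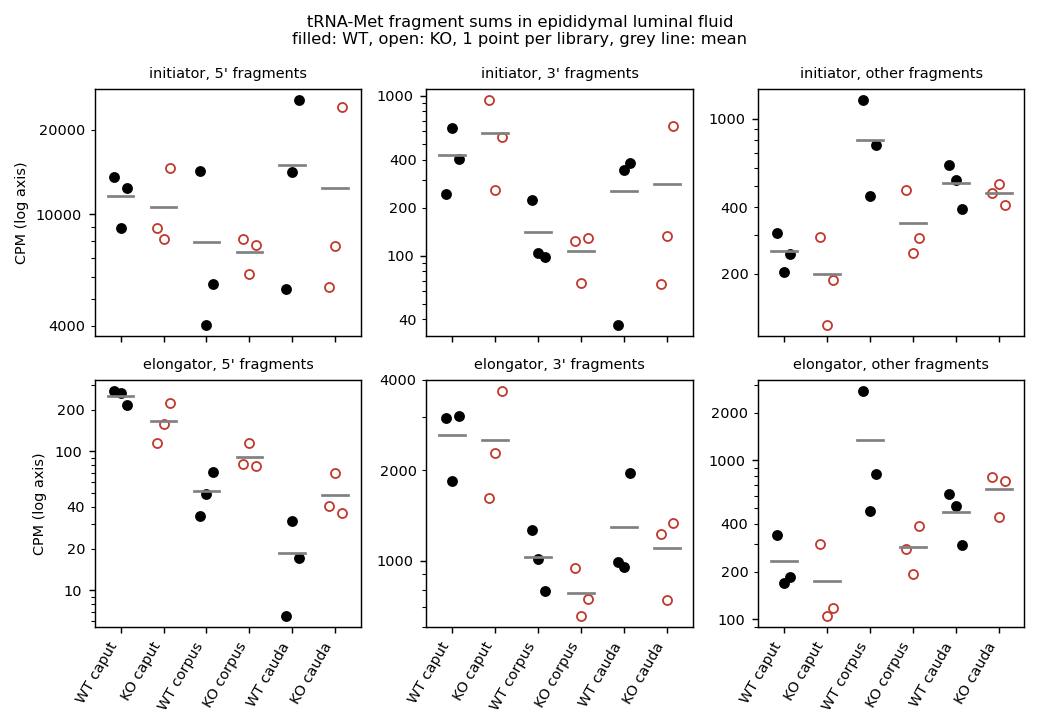
CPM (log axes with a separate range in each panel) of the 6 initiator and elongator fragment sums in each epididymal luminal fluid library, WT filled and KO open, with group means as grey lines. Elongator 5′ fragments go from 216 to 272 CPM in WT caput down to 6.54 to 31.7 CPM in WT cauda, and elongator other fragments are highest in WT corpus replicate 1 at 2739.6 CPM.

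Called isodecoder rows in WT fluid were of both classes, and 16 of the 25 rows tested were elongator. In corpus against caput 11 of 25 member rows were called, against 17.7% of all 2023 RNAs tested (13.7% of the 1606 RNAs after summing by anticodon) and 26.1% of 536 other tRF rows. Of them the 5 lower rows were all elongator while the 6 higher rows were 4 initiator and 2 elongator. In cauda against caput 8 of 25 were called, 6 elongator rows lower and 2 initiator rows higher, against 25.1% of all RNAs (23.4% after summing) and 31.0% of the other tRF rows (91 lower and 75 higher), a share close to that of the members. DESeq2 called 18 member rows among 430 RNAs in corpus and 10 among 571 in cauda, of the same 2023. When scaled by TMM over the remaining RNAs, without tRNA and rRNA rows, 5 elongator rows were lower and 6 elongator and 4 initiator rows higher in corpus, and 6 elongator rows lower and 1 elongator and 3 initiator rows higher in cauda. That scaling moved the median log2 fold change of all RNAs by 0.51 in corpus and 0.38 in cauda. With DESeq2 size factors the cauda calls were the same in number, 6 lower and 4 higher, so elongator rows were not all on 1 side. The rows with the smallest p in cauda were tRNA-Met-CAT-1_fiveprime and tRNA-Met-CAT-1_threeprime. The row tRNA-Met-CAT-1_fiveprime stood at 152, 181 and 138 CPM in WT caput and 1.01, 9.15 and 1.02 CPM in WT cauda, with a log2 fold change of -5.35 ± 0.82 (edgeR adjusted p = 0.000137). The row tRNA-Met-CAT-1_threeprime went from 664, 706 and 904 CPM to 42.4, 152 and 93.0 CPM (-2.98 ± 0.48, edgeR adjusted p = 0.000228), and it was already at 69.9, 222 and 155 CPM in WT corpus (-2.35 ± 0.47, adjusted p = 0.00256). The tRF_5′ row of tRNA-Met-CAT-1 had a log2 fold change of -2.64 ± 0.72 in corpus (edgeR adjusted p = 0.0142). The row tRNA-Met-CAT-2_fiveprime stood at 47.2, 51.6 and 45.0 CPM in caput and 10.4, 8.57 and 13.1 CPM in corpus (-2.17 ± 0.47, edgeR adjusted p = 0.00443), and in cauda against caput its log2 fold change was -2.65 ± 0.48 (adjusted p = 0.000666). The difference between the isodecoders was not tested.

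Markers of cell types, taken as microRNAs, differed between segments of WT fluid as well. The summed level of the 5 epithelial markers, all listed and none at 0, was 103 to 182 CPM in caput, 27.1 to 62.5 CPM in corpus and 75.1 to 132 CPM in cauda. Germ or ciliated cell markers, 3 of 5 listed, were at 1.995 to 3.50, 3.58 to 9.06 and 15.1 to 31.6 CPM. Smooth muscle markers (2 of 2 listed) were at 76.8 to 138, 90.6 to 168 and 147 to 321 CPM, blood markers (3 of 3) at 23.8 to 25.01, 19.6 to 50.8 and 40.8 to 62.1 CPM and immune markers (3 of 3) at 6.44 to 10.2, 13.6 to 17.7 and 19.9 to 40.0 CPM. Their part in the tRNA-Met differences was not tested.

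In tissue, no member row was called between WT segments by edgeR, or by DESeq2 among its 505 calls in corpus against caput and 881 in cauda against caput, with 0 rows at an unadjusted p under 0.05 in corpus against caput and 5 in cauda against caput (3 initiator rows lower and 2 elongator rows higher), where 11.8% of 3488 RNAs were called in corpus against caput and 23% in cauda against caput (12.2% and 24.1% after summing). The row with the smallest unadjusted p in cauda, tRNA-iMet-CAT-2_fiveprime, passed the adjusted threshold (edgeR adjusted p = 0.0341) but not that on the fold change, with means of 10.4 CPM in caput and 5.89 CPM in cauda, no overlap and a log2 fold change of -0.82 ± 0.27. The initiator sum with the smallest p in each comparison was tRF_other, with log2 fold changes of -0.52 ± 0.30 in corpus (edgeR adjusted p = 0.314) and -0.49 ± 0.30 in cauda (adjusted p = 0.275). Elongator tRF_other in corpus had a log2 fold change of -0.40 ± 0.36 (edgeR adjusted p = 0.547), and -0.57 to -0.08 when 1 library was left out. The elongator tRF_3′ stood at 23.9, 14.1 and 77.6 CPM in WT caput and 30.4, 50.9 and 158 CPM in WT cauda tissue, and the groups overlapped, with the library numbered 3 the highest in each. Its log2 fold change was 1.05 ± 0.71 (edgeR adjusted p = 0.33), and it was 0.071 without WT cauda replicate 3 and 2.06 without WT caput replicate 3. With the replicate number as a block, since same-numbered tissue libraries deviated together, the change was 1.08 ± 0.32 (adjusted p = 0.0118) and was called, and 3 elongator rows and no initiator row were called higher, against 29.3% of all RNAs. With the block no member row was called in corpus against caput, against 19.5% of all RNAs. Without the libraries numbered 3 the elongator tRF_3′ change was 1.09 (adjusted p = 0.3) and no member row was called. Smooth muscle markers in the same libraries were at 20.6 to 40.3 CPM in caput and 108 to 215 CPM in cauda tissue, and their part was not tested. In bulk tissue, fewer cells of a type and less RNA per cell cannot be told apart.

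Between KO and WT, tRF_other of both classes was lower in KO corpus fluid, and no member row was called by edgeR in the other 6 comparisons. In corpus fluid 8 of 25 member rows were called, all lower in KO: the tRF_other of each of the 6 elongator isodecoders, the tRF_other of tRNA-iMet-CAT-2 and the tRF_5′ of tRNA-iMet-CAT-2. The background was 19.7% of all 2023 RNAs (16.8% after summing), and 98 of 536 other tRF rows, 18.3%, were called lower and none higher, so lower tRFs in KO corpus fluid came from many anticodons. After summing, 36 of 143 other tRF sums, 25.2%, were called lower and none higher, with a median log2 fold change of -0.75. By rows the median was -0.58 over other tRFs, -0.16 over initiator rows and -0.33 over elongator rows. Elongator tRF_other stood at 2739.6, 483 and 822 CPM in WT and 278, 194 and 389 CPM in KO corpus fluid. The groups did not overlap, and the log2 fold change was -2.23 ± 0.56 (edgeR adjusted p = 0.00804). Initiator tRF_other stood at 1212, 446 and 758 CPM in WT and 479, 248 and 291 CPM in KO, groups that overlapped, with a log2 fold change of -1.25 ± 0.39 (edgeR adjusted p = 0.0344).

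These corpus fluid calls rested on few libraries. Without WT corpus fluid replicate 1, elongator tRF_other changed by -1.27 (edgeR adjusted p = 0.106), initiator tRF_other by -0.95 (adjusted p = 0.127), and no member row was called. No member row was called without KO replicate 2 either, 1 was called without KO replicate 1 and 3 without KO replicate 3, and the initiator sum was also lost without WT replicate 3 (adjusted p = 0.0552), KO replicate 2 (0.0648) or KO replicate 3 (0.108). The row with the smallest p, tRNA-iMet-CAT-2_fiveprime, stood at 92.8, 18.6 and 39.2 CPM in WT and 17.2, 9.45 and 18.6 CPM in KO (-1.74 ± 0.49, edgeR adjusted p = 0.0169). It is a minor form, with a median of 0.187% of the initiator tRF_5′ counts over the fluid libraries. Next was tRNA-Met-CAT-4_other, at 84.5, 40.9 and 45.5 CPM in WT and 16.0, 17.3 and 19.9 CPM in KO (-1.68 ± 0.47, adjusted p = 0.0171). With library totals in place of TMM, 1 member row, of the initiator, and no elongator row was called. When TMM was taken over the RNAs other than tRNA and rRNA rows, 4 initiator and 8 elongator rows were called, all lower in KO. That scaling moved the median log2 fold change of all RNAs by -0.87, and the share of all RNAs called under it is not given. All 9 initiator rows were then negative, against 7 in the main fit, so the number called moved both ways with the scaling. With filter and scaling kept, no row was called without WT replicate 1 or KO replicate 2, and 2 were called without KO replicate 1 and 3 without KO replicate 3. KO corpus fluid libraries were shallower, with totals of 1948718 to 3373869 counts against 3989262 to 10172577, and epithelial markers were at 87.5 to 134 CPM in KO and 27.1 to 62.5 CPM in WT. Germ or ciliated cell markers were at 12.8 to 15.4 and 3.58 to 9.06 CPM and immune markers at 17.2 to 70.8 and 13.6 to 17.7 CPM, and the part of depth and markers was not tested.

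Summed over isodecoders, initiator tRF_5′, elongator tRF_5′ and elongator tRF_3′ were not called in KO corpus fluid. Initiator tRF_5′ stood at 8142, 6120.1 and 7799.9 CPM in KO, inside the WT range of 4022 to 14331 CPM (-0.12 ± 0.54, edgeR adjusted p = 0.916). Elongator tRF_3′ stood at 944, 654 and 747 CPM in KO, overlapping the WT values of 1267, 1015 and 793 CPM (-0.39 ± 0.37, edgeR adjusted p = 0.502). Elongator tRF_5′ stood at 80.7, 114 and 78.5 CPM in KO, above the WT values of 34.5, 49.7 and 71.0 CPM, but the change of 0.82 ± 0.45 missed the threshold (edgeR adjusted p = 0.215). The initiator to elongator log2 ratio was 2.75 ± 0.01 in KO and 1.82 ± 0.23 in WT corpus fluid, a difference of 0.92 without overlap (exact permutation p = 0.1, the smallest that 3 against 3 allows, adjusted p = 0.66). With the most counted isodecoder the difference was 1.17. Elongator fragments held 0.155 to 0.195% of tRF counts in KO and 0.207 to 0.375% in WT corpus fluid, and initiator fragments 1.04 to 1.32% and 0.611 to 1.46%.

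**Figure D4:**
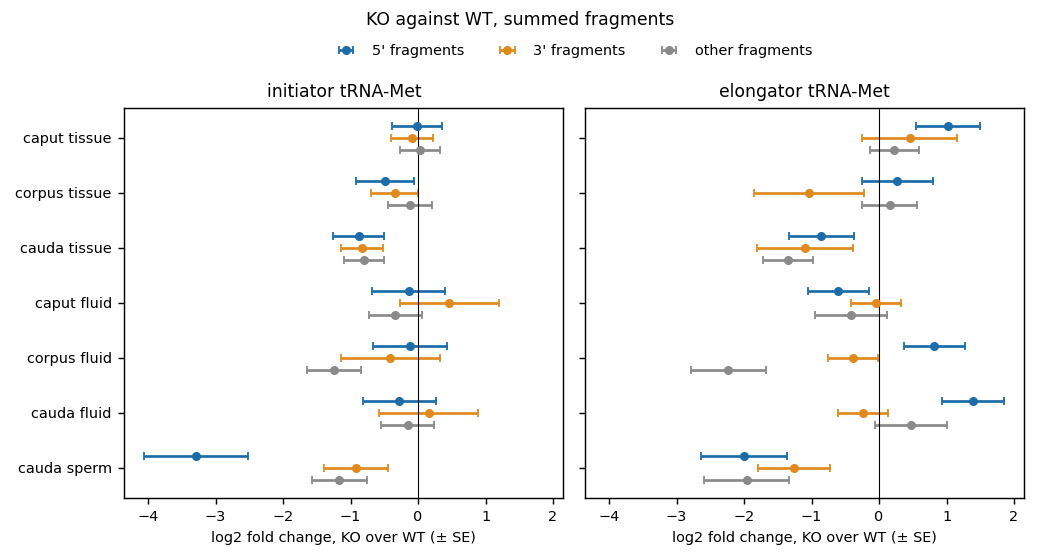
Log2 fold change (edgeR, ± SE) of KO over WT for the initiator (left) and elongator (right) fragment sums in the 7 comparisons, with 5′, 3′ and other fragments in separate colours and a line at 0. Of the 42 points only the 2 corpus fluid values for other fragments, -1.25 and -2.23, were called; all 6 values in cauda tissue and all 6 in cauda sperm lie below 0.

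In cauda epididymis tissue every tested member row had a negative log2 fold change in KO under each of 4 scalings, and rows were called only by the alternative fits. Elongator tRF_other stood at 296, 184 and 297 CPM in WT and 136, 65.7 and 102 CPM in KO cauda tissue, with no overlap, and its log2 fold change was -1.36 ± 0.37 (edgeR adjusted p = 0.0958). Initiator tRF_other stood at 105, 114 and 164 CPM in WT and 72.0, 53.4 and 93.7 CPM in KO, again with no overlap (-0.80 ± 0.30, adjusted p = 0.253). By edgeR no member row was called, 10 of 25 had an unadjusted p under 0.05, and 0.86% of all RNAs were called (1.46% after summing), while DESeq2 called 7 member rows and 174 of 3488 RNAs in all. With the replicate number as a block, the elongator tRF_other change was -1.38 ± 0.33 (edgeR adjusted p = 0.0157) and 5 elongator rows and no initiator row were called lower, against 9.35% of all RNAs. Without the libraries numbered 3 the elongator tRF_other change was -1.23 (adjusted p = 0.179).

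Other tRFs had negative values in KO cauda tissue too. The median log2 fold change was -0.51 over the 9 initiator rows, -0.97 over the 16 elongator rows tested and -0.55 over the 581 other tRF rows tested. After summing by anticodon the gap was smaller, with a median of -0.92 over 144 other tRF sums. For tRF_5′, tRF_3′ and tRF_other the elongator sums were at -0.86, -1.10 and -1.36 and the initiator sums at -0.88, -0.83 and -0.80. As shares of all tRF counts, elongator fragments held 1.25% ± 0.135 in WT and 0.988% ± 0.0647 in KO cauda tissue, and initiator fragments 1.81% ± 0.184 and 1.96% ± 0.205. The initiator to elongator log2 ratio was 0.53 ± 0.30 in WT and 0.98 ± 0.21 in KO, groups that overlapped (exact permutation p = 0.2, adjusted p = 0.66). Markers of epithelium were at 8.66 to 15.7 CPM in WT and 7.79 to 13.1 CPM in KO cauda tissue, and of smooth muscle at 108 to 215 and 107 to 140 CPM.

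In caput tissue the elongator had the opposite sign. All 16 tested elongator rows had positive log2 fold changes in KO (median 0.40; 15 of 16 when scaled by library totals or by TMM from other RNAs), while the initiator rows had a median of -0.01 and the other tRF rows of -0.01. Rows of a class share reads, so the 16 rows are not separate observations. Summed over isodecoders, the elongator values were 1.03 for tRF_5′, 0.45 for tRF_3′ and 0.22 for tRF_other. No RNA was called by edgeR (background 0%, by rows and after summing) or DESeq2, and 4 elongator rows had an unadjusted p under 0.05. Elongator tRF_5′ stood at 7.59, 4.03 and 7.10 CPM in WT and 7.87, 18.1 and 12.2 CPM in KO caput tissue, a log2 fold change of 1.03 ± 0.47 (edgeR adjusted p = 0.999). The initiator sum with the smallest p was tRF_3′ (-0.09 ± 0.31, adjusted p = 0.999). The effect of KO in cauda minus that in caput was -1.88 ± 0.67 for elongator tRF_5′ (edgeR interaction adjusted p = 0.668) and -1.58 ± 0.52 for elongator tRF_other (adjusted p = 0.509), so that a difference between segments was not shown. In corpus tissue, with 2 KO libraries, no RNA was called by edgeR (background 0%, by rows and after summing), DESeq2 called 23 of 3488 RNAs and no member row, and no member row had an unadjusted p under 0.05. Elongator tRF_3′ was at 33.9, 28.9 and 66.2 CPM in WT and 24.6 and 17.3 CPM in KO (-1.04 ± 0.81, adjusted p = 0.77; -0.59 without WT replicate 3), and initiator tRF_5′ had a log2 fold change of -0.49 ± 0.43 (adjusted p = 0.806; -0.60 to -0.32 when 1 library was left out).

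In caput and cauda fluid no member row was called in KO by edgeR, with 0% of all RNAs called in each by rows and 0% and 0.249% after summing. No member row in caput fluid and 3 in cauda fluid (1 lower, 2 higher) had an unadjusted p under 0.05. Of 2023 RNAs, DESeq2 called 11 in caput fluid, 0 of them member rows, and 35 in cauda fluid, 2 of them member rows. In caput fluid elongator tRF_5′ stood at 114, 157 and 222 CPM in KO against 272, 262 and 216 CPM in WT, a log2 fold change of -0.60 ± 0.45 (edgeR adjusted p = 0.716; -0.59 to -0.24 when 1 library was left out, -0.88 to -0.40 with filter and scaling kept), and initiator tRF_other changed by -0.34 ± 0.39 (adjusted p = 0.814). In cauda fluid elongator tRF_5′ stood at 40.6, 69.6 and 35.9 CPM in KO and 6.54, 31.7 and 17.2 CPM in WT. The KO libraries lay above the WT libraries, but the change of 1.40 ± 0.46 missed the threshold (edgeR adjusted p = 0.236), and was 0.73 without WT replicate 1 and 1.80 without WT replicate 2. Initiator tRF_5′ in cauda fluid spread from 5435 to 25554 CPM in WT and from 5503 to 24046 CPM in KO (-0.28 ± 0.55, edgeR adjusted p = 0.872), a change whose sign turned when 1 library was left out (-1.51 to 0.21). The interaction of KO with segment for elongator tRF_5′ in fluid, cauda minus caput, was 2.001 ± 0.64 and also missed the threshold (edgeR adjusted p = 0.269). Epithelial markers were at 241 to 298 CPM in KO and 103 to 182 CPM in WT caput fluid, and their part was not tested.

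In cauda sperm all 22 tested member rows had negative log2 fold changes in KO under each of 4 scalings, and none was called by edgeR, with 0% of all RNAs called by rows and after summing. DESeq2 called 9 of them, and 122 of 2480 RNAs in all. Initiator tRF_5′ stood at 175, 176, 172 and 14.1 CPM in WT replicates 1 to 4 and at 5.97, 22.9, 19.9 and 5.56 CPM in KO. WT replicate 4 fell inside the KO range and the other WT libraries lay far above it, and the log2 fold change was -3.29 ± 0.77 (edgeR adjusted p = 0.185). Elongator tRF_other showed the same layout, at 381, 389, 446 and 50.8 CPM in WT and 55.4, 136, 93.2 and 39.2 CPM in KO (-1.96 ± 0.62, edgeR adjusted p = 0.254). Elongator tRF_5′ was rare, with 551, 27, 33 and 8 counts in WT and 64, 224, 228 and 2 counts in KO, or 9.89, 11.1, 23.5 and 2.45 against 2.18, 4.52, 3.34 and 0.556 CPM (-2.01 ± 0.64, adjusted p = 0.254). In WT replicate 4 tRFs were 1.51% of all counts, against 8.39, 4.07 and 7.92% in WT replicates 1 to 3 and 1.91 to 5.04% in KO. As a share of its tRF counts, replicate 4 held 3.885% initiator fragments, inside the range of the other WT libraries (2.02 to 3.96%) and above KO (1.52 to 2.11%). Its elongator share, 0.437%, was the lowest of the WT libraries. The median log2 fold change was -0.91 over initiator rows, -1.58 over elongator rows and -0.64 over the 511 other tRF rows tested, and 14 of the 22 member rows had an unadjusted p under 0.05. After summing by anticodon, the median over 142 other tRF sums was -0.96. For tRF_5′, tRF_3′ and tRF_other the initiator sums were at -3.29, -0.91 and -1.16 and the elongator sums at -2.01, -1.26 and -1.96.

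**Figure D5:**
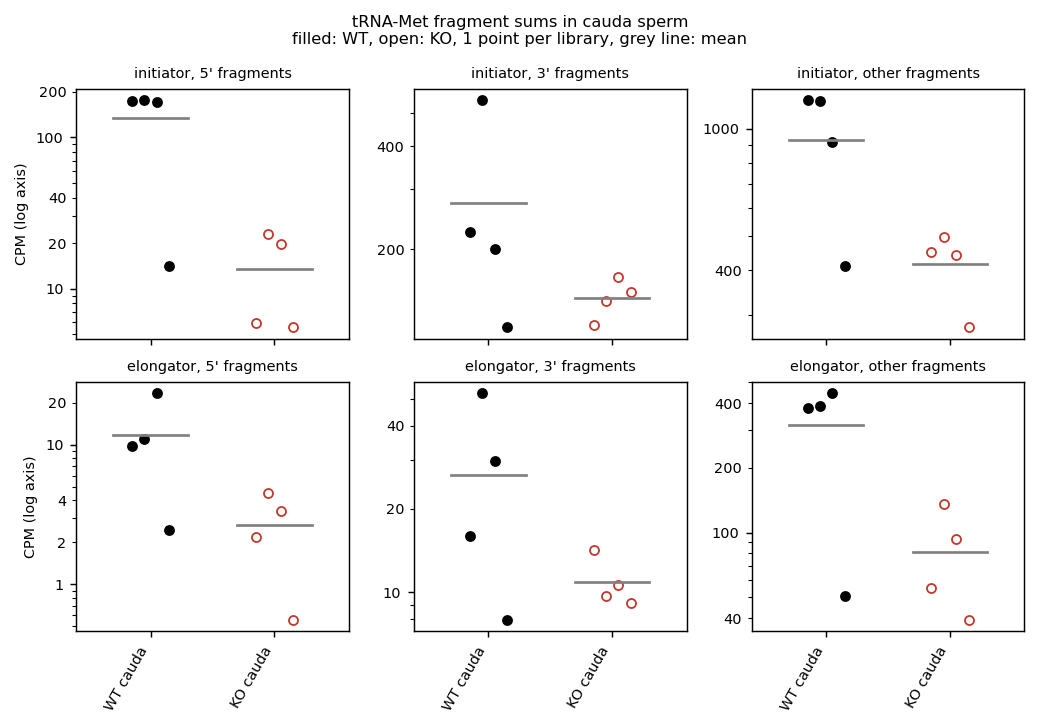
CPM (log axes with a separate range in each panel) of the 6 initiator and elongator fragment sums in each cauda sperm library, WT filled and KO open, with group means as grey lines. For initiator 5′ fragments 3 WT libraries lie at 172 to 176 CPM, and the lone low WT library, replicate 4, lies at 14.1 CPM among the KO libraries (5.56 to 22.9 CPM).

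Leaving out WT cauda sperm replicate 4, a choice made after its values were seen, gave 12 of 22 member rows called lower (3 initiator rows, all tRF_5′, and 9 elongator rows), against 11.5% of 2836 RNAs. Without it the log2 fold change was -3.60 ± 0.52 for initiator tRF_5′ (edgeR adjusted p = 0.00219), -1.36 for initiator tRF_other (adjusted p = 0.0417), -2.26 for elongator tRF_other (adjusted p = 0.00946) and -2.25 for elongator tRF_5′ (adjusted p = 0.0182). In that summed fit 4.56% of 2432 RNAs were called, and the share called among other tRFs is not given. Initiator tRF_5′ was 10.9, 9.19, 13.3 and 2.59% of initiator fragments in WT sperm and 1.04, 3.47, 3.16 and 1.29% in KO (exact permutation p = 0.0857, adjusted p = 0.508). Elongator fragments as a share of all tRF counts did not overlap between WT (0.437 to 0.935%) and KO (0.239 to 0.347%), with replicate 4 included, and initiator fragments did overlap (2.02 to 3.96% in WT and 1.52 to 2.11% in KO). These shares of all tRF counts were not tested or set against those of other anticodons. Depth moved with genotype, since 3 of 4 KO libraries held 42764979 to 62128314 counts and 3 of 4 WT libraries held 1134840 to 3025269, and its part was not tested. Blood markers, 3 of 3 listed, were at 2.64 to 7.82 CPM in WT and 1.70 to 56.1 CPM in KO, epithelial markers (5 of 5) at 6.24 to 23.8 and 16.3 to 23.3 CPM, and germ or ciliated cell markers (4 of 5) at 17.9 to 47.2 and 30.5 to 43.2 CPM.

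Isodecoders of a class shared many counts. In all 18 fluid and all 8 sperm libraries the tRF_5′ counts of tRNA-iMet-CAT-1 and tRNA-iMet-CAT-3 were equal within 2% or 1 count, and so were the tRF_3′ counts of tRNA-iMet-CAT-1 and tRNA-iMet-CAT-2. In fluid tRNA-iMet-CAT-1 and tRNA-iMet-CAT-3 each held a median of 49.9% of the initiator tRF_5′ counts. Among elongator isodecoders the leading one depended on the fragment type. In fluid tRNA-Met-CAT-1 led tRF_5′ (median 60.3%) and tRF_other (67.4%), tRNA-Met-CAT-2 led tRF_3′ (57.3%), and tRNA-Met-CAT-6 had no tRF_5′ count in any of the 18 libraries. In tissue tRNA-Met-CAT-2 held a median of 38.6% of elongator tRF_5′ and tRNA-Met-CAT-1 4.02%.

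Other methionine tRNA features were also listed, among them rows named for single tRNA gene loci, which were counted apart from the mature tRNA rows. In tissue 8 of 9 initiator and 6 of 7 elongator loci passed the filter, in fluid 3 of 6 and 5 of 6, and in sperm 2 of 6 and 3 of 5. No locus was called by edgeR between KO and WT. Between WT segments of the duct, 2 of 14 loci tested were called in cauda against caput tissue (23% of all RNAs), 2 of 8 in corpus against caput fluid (17.7%) and 3 of 8 in cauda against caput fluid (25.1%), and these were named after their values were seen. The initiator locus tRNA-iMet-CAT-1-1 rose from a mean of 32.8 CPM in WT caput to 154 CPM in WT cauda tissue (2.24 ± 0.58, edgeR adjusted p = 0.00914) and from 13.7 to 48.4 CPM in fluid (1.82 ± 0.62, adjusted p = 0.0353). The elongator locus tRNA-Met-CAT-1-1 rose from 0.824 to 5.41 CPM in the same tissue comparison (2.70 ± 0.85, edgeR adjusted p = 0.0282). In fluid, in contrast, tRNA-Met-CAT-1-1 fell from a mean of 77.4 CPM in caput to 18.1 CPM in corpus (-2.10 ± 0.41, edgeR adjusted p = 0.00241) and 9.40 CPM in cauda (-3.04 ± 0.43, adjusted p = 6.9e-05). The elongator locus tRNA-Met-CAT-1-2 fell from 25.3 to 7.06 CPM in cauda (-1.84 ± 0.48, adjusted p = 0.00855), and tRNA-Met-CAT-3-1 was at 0.671 CPM in caput and without counts in corpus, and no fold is given for it.

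Full-length tRNAs were rare. Of their rows only tRNA-iMet-CAT-1 passed the filter in tissue and fluid and none did in sperm, and full-length counts came to at most 0.537% of the initiator fragment counts in any tissue library (1.23% with the most counted isodecoder). In fluid tRNA-iMet-CAT-1_wholecounts had a mean of 1.98 CPM in WT caput, 0.0671 CPM in WT corpus and 1.13 CPM in KO corpus, and both the WT corpus to caput difference (edgeR adjusted p = 0.00744) and the KO to WT corpus difference (adjusted p = 0.0344) were called. It had no count in WT corpus replicates 1 and 2, and no fold is given. The mitochondrial mt-Tm passed the filter in tissue and sperm and was not called in any comparison, and none of the 9 antisense rows passed it.

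The anticodons closest in total level to each class, other than the methionine tRNAs, were found over the libraries of a table. In fluid the anticodons closest to the initiator were tRNA-Gln-CTG (Pearson's r = 0.822), tRNA-Cys-GCA (0.813) and tRNA-Tyr-GTA (0.797) over 18 libraries, where the median of 49 anticodons was 0.406. The closest to the elongator were tRNA-Asn-GTT (0.875), tRNA-Thr-TGT (0.872) and tRNA-Arg-ACG (0.849), with a median of 0.537, and the 2 classes correlated with each other at 0.532. In tissue, over 17 libraries, the initiator was closest to tRNA-Thr-CGT (0.97), tRNA-Thr-TGT (0.956) and tRNA-Lys-CTT (0.954), and the elongator to tRNA-Ile-TAT (0.952), tRNA-Lys-TTT (0.948) and tRNA-Phe-GAA (0.934), while the classes correlated with each other at 0.879 and the medians over 48 anticodons were 0.854 and 0.815. In sperm, over 8 libraries, the initiator was closest to tRNA-Ile-TAT (0.963), tRNA-Ser-GCT (0.962) and tRNA-Arg-CCT (0.956), and the elongator to tRNA-Arg-CCT (0.991), tRNA-Asn-GTT (0.979) and tRNA-Arg-TCT (0.978), so that tRNA-Arg-CCT stood on both lists. The classes correlated with each other there at 0.958, above the value of tRNA-Arg-CCT for the initiator, and the medians were 0.834 and 0.892. These correlations of log2 CPM are descriptions, since the points share segment, genotype, library and scaling.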

How the data were processed

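Small RNA libraries of 17 epididymis tissue, 18 epididymal luminal fluid and 8 cauda sperm samples had been sequenced, and the authors deposited raw read counts per RNA in 3 tables. According to their methods and processing notes, adapters were trimmed with cutadapt, reads were mapped with bowtie2 to mm10 plus rRNA and mature tRNA references, and fragments were typed by a modified tRAX pipeline. Their processing notes also name UMI-tools. Reads on several features equally well count on each, so isodecoder rows are not independent.

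Each table was fitted on its own in edgeR 4.0.16 (R 4.3.3) with TMM scaling, filterByExpr (minimum count 10) and the quasi-likelihood F test with Benjamini-Hochberg adjustment over all RNAs tested, once on rows as deposited and once after tRNA rows were summed by anticodon and fragment type. All groups of a table shared 1 estimate of the spread. DESeq2 1.42.0 was an alternative. The scripts were tested on simulated data. Ratios used a pseudocount of 0.5, and ratios and shares were compared with 2-sided exact permutation tests over libraries. Named were the 6 sums, per comparison the sums called and the sum with the smallest p in each class, up to 2 called rows with the smallest p, and the 3 anticodons most alike in level. Members, marker and comparison lists were chosen with earlier results of these data known. Groups follow sample titles. Replicate numbers come from the labels, and same-numbered libraries were taken as paired where every pair's deviations correlated above 0.1: KO and WT cauda tissue (lowest 0.27), WT corpus and caput tissue (0.31) and WT cauda and caput tissue (0.31). Class totals held 4419 to 271500 (initiator) and 2649 to 131162 (elongator) counts per tissue library and 20620 to 182643 and 3048 to 34886 per fluid library.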

Additional observations from a re-analysis of the deposited data

Results flagged for a closer look

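Dixon's criterion was applied to cauda sperm alone, the groups with 4 libraries, so tissue and fluid were not screened. Chance gives about 1 outlying library in 20 independent groups, and 4 of 32 group values tested held one. Those 32 values were linked, since levels, ratios and shares came from the same counts. In WT cauda sperm, replicate 4 was the low library for initiator tRF_5′ (gap of 0.99 of the group's range on the log2 CPM scale) and for elongator tRF_other (0.927). In KO cauda sperm, 1 library stood apart for the initiator to elongator ratio of tRF_3′ (0.842) and replicate 4 for the share of tRF_5′ within elongator fragments (0.943). That share rested on few counts, since KO replicate 4 held 2 tRF_5′ counts among 176 elongator fragment counts.

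In a pair of tissue segments the KO and WT libraries did not overlap and moved in opposite directions for elongator tRF_5′: the mean log2 CPM of KO minus WT was 0.998 in caput tissue and -1.03 in cauda tissue, and the interaction had an edgeR adjusted p of 0.668. The share of tRF_5′ within elongator fragments was 2.69 percentage points lower in KO than in WT caput fluid (KO minus WT, -2.69) and 5.42 higher in KO corpus fluid (5.42), without overlap in either by summed counts. With the most counted isodecoder the difference was -3.04 in caput fluid, where the groups then overlapped, and 8.07 in corpus fluid, where they did not. These shares moved in opposite directions, and the difference between those segments was not tested.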

How the results depend on the processing

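Under the alternatives, 379 values of the named sums kept their direction and side of the threshold, 19 passed it anew, 27 no longer passed it and 9 changed sign. For the ratio 101 kept their direction and 10 changed sign, for the shares 182 and 18, and for counts of called rows 153 stayed within 1.5 times the main count and 33 did not. The cause of the changes was not tested. A fit without 1 library also loosened the filter and moved the scaling: in WT cauda against caput fluid the median log2 fold change of all RNAs was -0.05 to 0.24 after summing over 1701 to 1731 RNAs, against -0.28 over 1606. So, after the data were seen, fluid and sperm libraries were also left out with filter and scaling kept, which gave 0 to 8 called rows in KO corpus fluid, 0 to 1 in KO cauda fluid, 0 to 13 in KO sperm, 5 to 13 in WT corpus against caput fluid and 4 to 9 in WT cauda against caput fluid.

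DESeq2 called 7 member rows in KO cauda tissue, 2 in KO cauda fluid, 9 in KO sperm and 18 in WT corpus against caput fluid. How many RNAs it called in all is given above with each comparison. With the replicate block 5 rows were called in KO cauda tissue (9.35% of all RNAs), 3 in WT cauda against caput tissue (29.3%) and 17 in WT corpus against caput fluid. In that fluid comparison same-numbered pairs correlated at 0.058 to 0.082, below the 0.1 set for pairing, and differently numbered pairs at -0.0092 or lower. Library totals gave 1 called row in KO corpus fluid, TMM from other RNAs 1 in WT cauda against caput tissue, and fits of the 2 groups alone 2 there and 17 in WT corpus against caput fluid. Leaving out 1 library gave 0 to 10 called rows in KO corpus fluid, 0 to 1 in KO cauda fluid, 0 to 12 in KO sperm, 0 to 2 in WT cauda against caput tissue, 5 to 13 in WT corpus against caput fluid and 4 to 8 in WT cauda against caput fluid. Apart from sperm without WT replicate 4, the share of all RNAs called is not given for fits without 1 library. It is also not given for the block in fluid or the 2 groups alone, so these counts are not set against a background. With TMM factors from other RNAs the median over all RNAs moved by -0.64 in KO corpus fluid after summing, and the called sums kept their direction under each scaling. The initiator tRF_other sum in KO corpus fluid was lost with library totals (-0.97, edgeR adjusted p = 0.109) and with the 2 groups alone (adjusted p = 0.0522), and in WT cauda against caput fluid it was called with DESeq2 (1.33), TMM from other RNAs (1.42), the block (1.04) and the most counted isodecoder (1.64). The elongator tRF_5′ falls in WT fluid were called under every alternative run.

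The difference in the initiator to elongator log2 ratio changed sign with 5′ and 3′ fragments alone in KO corpus tissue (0.33), KO caput fluid (0.0015) and WT corpus against caput fluid (0.63), with the most counted isodecoder in KO caput fluid (0.060), and when 1 library was left out in KO caput fluid (-0.16 to 0.13), KO cauda fluid (-0.81 to 0.23) and WT corpus against caput tissue (-0.32 to 0.038). Leaving out 1 library also turned the sign of the initiator tRF_3′ in KO caput tissue (-0.25 to 0.16), tRF_other in KO caput fluid (-0.71 to 0.037) and tRF_5′ in KO cauda fluid (-1.51 to 0.21; 0.35 without WT replicate 3 and 0.078 without KO replicate 1 with filter and scaling kept). It did so for share differences, in percentage points, of initiator tRF_3′ in KO caput tissue (-2.65 to 0.062), KO cauda tissue (-1.23 to 0.093), WT corpus against caput tissue (-0.38 to 3.11) and WT cauda against caput tissue (-0.55 to 2.16). The same held for elongator tRF_other in KO caput (-9.38 to 2.01) and KO cauda tissue (-11.01 to 1.03), initiator tRF_5′ in KO caput fluid (-2.72 to 1.20), KO cauda fluid (-2.53 to 1.38) and WT cauda against caput fluid (-2.50 to 1.41), and initiator tRF_other in KO sperm (-2.07 to 3.46).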
